A study of Arabidopsis thaliana with 10 samples.

Results

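Prx37, PRX52, AT5G64120 and AT4G33420 are class III peroxidases of Arabidopsis thaliana, and their transcripts were followed in red 35S:PAP1 plants and in an empty vector control. The 4 genes were chosen by name, each through the probe set that names it alone in the probe-to-gene table, out of 13350 genes named in this way. Each gene had 1 such probe set, no filter on low values was set, and all 4 were tested. Earlier results of these data were known when the genes were chosen. Counts of the 4 set beside shares of all probe sets are therefore descriptions. Both lines are of accession Columbia. The 35S:PAP1 line carries PAP1, a MYB transcription factor that switches on anthocyanin synthesis, behind the viral 35S promoter, which is active in most plant tissues. The sources used here do not give the plants' age or say whether a line comes from 1 transformant. The 10 arrays hold 1 array of each line on days 1, 2, 7, 8 and 12, each from RNA of pooled leaves, and the arrays labelled Hex were read as the empty vector. The regimes are a reading of the series text. Day 1 fell under room temperature and bright light (22 °C, irradiance 440 µmol m-2 s-1). Days 2 and 7 were warm and dim, with a day temperature of 30 °C and an irradiance of 150 in the same unit. Days 8 and 12 were cool and bright, with 15 °C and again 440. Day, plant age and regime coincide on this reading and cannot be told apart. Temperature and light changed together. Red leaves turned largely green in the warm dim days and the cool bright regime was meant to bring the colour back, which sets the question of how leaf transcripts followed the regime and the transgene.

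Class III peroxidases are secreted heme enzymes of land plants. In the cell wall they use hydrogen peroxide to oxidise phenolic compounds, among them the monolignols that polymerise into lignin, and under other conditions they produce reactive oxygen themselves. The monolignols and the anthocyanins both derive from the phenylpropanoid pathway. The family is large, and many members answer to wounding, pathogens, temperature or light. PRX52 is known for a part in lignin synthesis in the Arabidopsis stem. Overexpression of Prx37 in Arabidopsis is known to give dwarfed plants with more phenolics bound in the wall. AT5G64120, also named PRX71, is known to restrict growth and strengthen the wall after wall damage. For AT4G33420 no role beyond its family is given here.

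The values are log2 expression values with 1 decimal, so single-array differences come in steps of 0.1, and they carry no detection call. A limit of 4.1, chosen after seeing the data, was the highest value of EXPA7, EXPA18 and BAN, genes of root hairs and seed coat. The third root gene, PYK10, read 4.1 to 5.1 and was left out because it changed with the days. With it the limit would be 5.1, and the arrays at or below it would rise from 3 to 7 for Prx37, from 2 to 6 for PRX52 and from 4 to 6 for AT4G33420, with 0 for AT5G64120 under both. Over all probe sets, 34.2% of values lay at or below 4.1, and a fold or a called change with a dim-side array there is given as "at least" or "or lower". Those words mark the dim array only. They are no lower bound on the change, which is still an estimate with a standard error. The leaf markers LHCB4.1 (12.1 to 13.6) and LHCB4.2 (9.6 to 13.1) were bright but not steady, and the marker changes are given beside each comparison of days. No probe set named PAP1 alone, so the transgene's transcript is not analysed here. DFR, an anthocyanin enzyme gene downstream of PAP1, read 10.7 to 12.6 in 35S:PAP1 and 3.8 to 8 in the empty vector, with no overlap. Some array controls stood apart. On the 35S:PAP1 array of day 2, the 25S rRNA control read 9.7 against 4.7 to 6.7 on the other arrays, and the actin 5′ minus 3′ difference was -4.3 against -3.7 to -2.9. On day 7, the median of the added poly-A controls was 3.8 in the empty vector and 3.95 in 35S:PAP1, against 6.9 to 7.5 on the other 8 arrays. Whether these have a part in the results for days 2 and 7 was not tested, and values leaving out those arrays, or day 7, are given where they move a result. No label names separate cultures as replicates, so the p-values measure only the spread between these arrays.

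Prx37 was lower in 35S:PAP1 than in the empty vector by nearly the same amount on every day. In the empty vector it read 5.4, 4.7, 4.4, 4.6 and 6.3 on days 1, 2, 7, 8 and 12. In 35S:PAP1 it read 4.9, 4.1, 3.8, 4 and 5.7. The 2 lines ran in parallel through a fall to day 7 and a high point on day 12, and their ranges over the days overlapped. The 35S:PAP1 values of days 2, 7 and 8 lay at or below the limit. Averaged over the lines, the levels ran from day 12 (6) through days 1 (5.15), 2 (4.4) and 8 (4.3) to day 7 (4.1). The neighbouring steps below day 2, of 0.1 and 0.2, were within 2 standard errors of a day difference, which was 0.12.

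PRX52 had its highest values on day 12 and its lowest on day 7 in the empty vector, and in 35S:PAP1 its lowest on day 2. The empty vector arrays read 6.3, 4.8, 4.2, 5.7 and 6.7 in day order. The 35S:PAP1 arrays read 4.6, 3.9, 4, 4.6 and 6.2. The transgenic line was lower on each day, by 1.7 on day 1 but by 0.2 on day 7, when both lines were near the limit. Averaged over the lines, the order was day 12 (6.45), day 1 (5.45), day 8 (5.15), day 2 (4.35) and day 7 (4.1). The steps from day 1 to day 8 and from day 2 to day 7, of 0.3 and 0.25, were each smaller than the standard error of a day difference, 0.32.

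AT5G64120 was measured above the limit on all 10 arrays. It read 6.3, 9.8, 9.2, 6.9 and 8 in the empty vector, with its high point on day 2. It read 7.2, 8.6, 7.1, 5.5 and 7.1 in 35S:PAP1, again highest on day 2. The transgenic line was higher on day 1 and lower on each of the other 4 days. Averaged over the lines, the order was day 2 (9.2), day 7 (8.15), day 12 (7.55), day 1 (6.75) and day 8 (6.2). No step between neighbours in that order, from 0.55 to 1.05, exceeded 2 standard errors of a day difference, which was 0.58.

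AT4G33420 was near the limit on the bright days and high on the warm dim ones. The empty vector arrays read 4, 7.5, 7.6, 4 and 4.6 in day order. The 35S:PAP1 arrays read 4.4, 7.2, 5.6, 3.7 and 3.9. In each line both warm dim values lay above all 3 bright values. The empty vector values of days 1 and 8 and the 35S:PAP1 values of days 8 and 12 were at or below the limit. Averaged over the lines, the order was day 2 (7.35), day 7 (6.6), day 12 (4.25), day 1 (4.2) and day 8 (3.85), and only the step of 2.35 from day 7 to day 12 exceeded 2 standard errors of a day difference, which was 0.47.

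**Figure D1:**
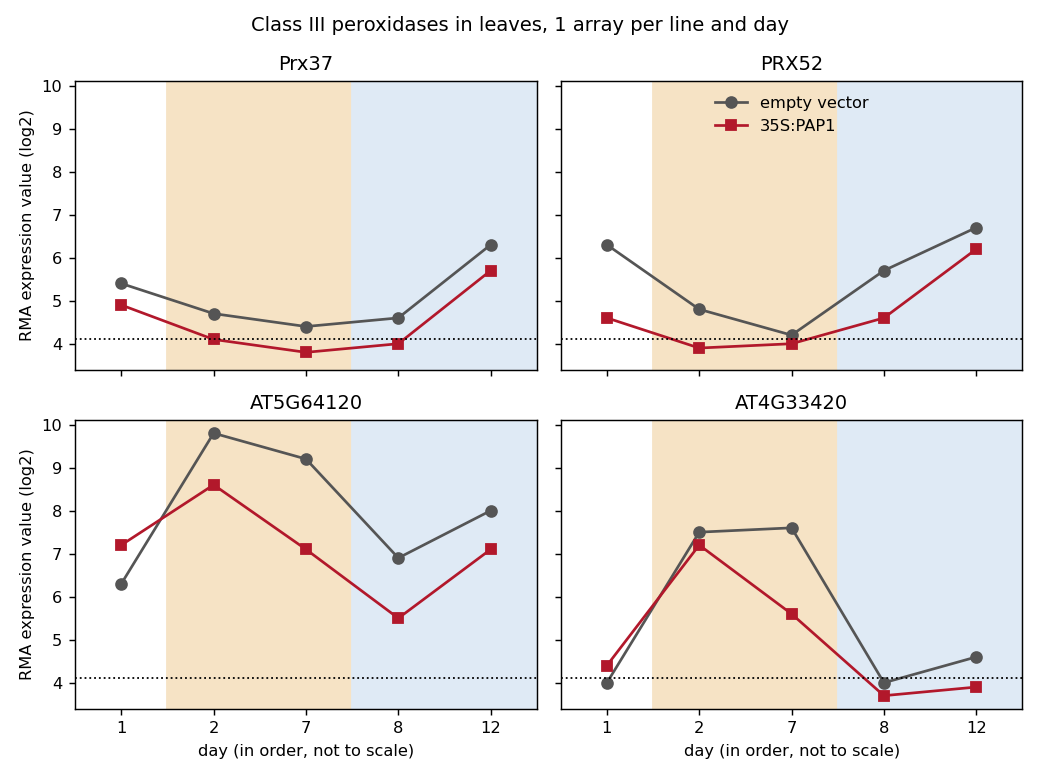
Log2 expression of the 4 peroxidases (y axis) by day (x axis, in order and not to scale), 1 array per line and day, with the empty vector and 35S:PAP1 as separate lines. Tan marks the warm dim days, blue the cool bright days and the dotted line the limit of 4.1; AT4G33420 reached 7.5 and 7.6 in the empty vector on the tan days and 4 on days 1 and 8.

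The first comparison asked whether the transgene went with a different peroxidase level over the 5 days. Prx37 and PRX52 were lower in 35S:PAP1 on all 5 days, and AT5G64120 and AT4G33420 on 4 of 5. None of the 4 differences passed the adjusted threshold of 0.05 (limma, Benjamini-Hochberg over 22746 probe sets). Of all probe sets, 18 did, which is 0.0791%, and 3 of the 4 peroxidases had an unadjusted p under 0.05, as did 1587 probe sets. Being lower on all 5 days was shared by 345 probe sets, or 1.52%. No peroxidase had groups free of overlap, which 3 probe sets with lower 35S:PAP1 values had. The median difference was -0.73 for the 4 and 0.02 for all probe sets. In RNA from pooled leaves, fewer cells of a type and less RNA per cell cannot be told apart.

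The Prx37 differences were -0.5, -0.6, -0.6, -0.6 and -0.6 in day order. Their mean was -0.58 ± 0.08 (SE), at least 1.49-fold lower, with a 95% interval of -0.75 to -0.41 and an adjusted p of 0.065. All 5 differences lay within 1 rounding step, but those of days 2, 7 and 8 rest on 35S:PAP1 values at or below the limit. Prx37 stood at 5.08 ± 0.78 (SD, n = 5 days) in the empty vector and 4.5 ± 0.79 in 35S:PAP1, so the change over the days within a line exceeded the difference between lines.

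The PRX52 differences were -1.7, -0.9, -0.2, -1.1 and -0.5, with a mean of -0.88 ± 0.20, at least 1.84-fold lower, and an adjusted p of 0.38. PRX52 stood at 5.54 ± 1.04 (SD, n = 5 days) in the empty vector and 4.66 ± 0.92 in 35S:PAP1. For AT5G64120 they were 0.9, -1.2, -2.1, -1.4 and -0.9, with a mean of -0.94 ± 0.37 and an adjusted p of 0.69. Its levels were 8.04 ± 1.48 and 7.1 ± 1.10 in the same order of lines. For AT4G33420 they were 0.4, -0.3, -2, -0.3 and -0.7, with a mean of -0.58 ± 0.30 and an adjusted p of 0.72. Its levels were 5.54 ± 1.85 and 4.96 ± 1.45. The SD of the daily difference was 0.58 for PRX52, 1.12 for AT5G64120 and 0.89 for AT4G33420, against 0.05 for Prx37 and a median of 0.24 over all probe sets. AT5G64120 and AT4G33420 differed most between the lines on day 7, the day on which the lines correlated least over all probe sets (0.973, against 0.986 to 0.991 on the other days). Without the day 7 arrays the mean difference of AT4G33420 was -0.23 and that of AT5G64120 was -0.65. With days 2 and 7 both left out of this paired comparison they were -0.20 and -0.47.

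The next comparisons asked how the peroxidases changed when the plants entered the warm dim regime. From day 1 to day 2, averaged over the lines, AT4G33420 and AT5G64120 rose and Prx37 fell, 3 of the 4 genes against 9.94% of all probe sets. AT4G33420 rose by 3.15 ± 0.47 (at least 8.88-fold, adjusted p = 0.011). AT5G64120 rose by 2.45 ± 0.58 (5.46-fold, adjusted p = 0.041), with 3.5 in the empty vector and 1.4 in 35S:PAP1. Prx37 changed by -0.75 ± 0.12 (at least 1.68-fold lower, adjusted p = 0.013). PRX52 changed by -1.10 ± 0.32 and missed the threshold (adjusted p = 0.069). The median change was 0.85 for the 4 and -0.05 for all probe sets. The 4 moved in both directions, so their median describes no single gene. Of 7 cell type markers, the leaf gene LHCB4.2 rose (0.90, adjusted p = 0.036), and its part in these results was not tested. Each call rested on 2 arrays a day, 1 of each line. In this and the later day comparisons, the standard error is drawn from how far the lines ran in parallel. No repeat of a day was measured, so variation between repeats is not part of it. The Prx37 call was lost without any 1 of the arrays of days 1 and 2 (-0.80 to -0.70), the AT4G33420 call without the empty vector array of day 1 (2.54) or of day 2 (3.33) or the 35S:PAP1 array of day 2 (2.98), and the AT5G64120 call without the empty vector array of day 1 (1.30), either array of day 2 (2.29 and 2.61), or any array of days 8 and 12 (2.45). Over 14 alternatives the adjusted p ran from 0.016 to 0.13 for Prx37, from 0.0066 to 0.15 for AT4G33420 and from 0.028 to 0.22 for AT5G64120.

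By day 7 the AT4G33420 transcript was still above, and Prx37 and PRX52 below, their day 1 levels. This was 3 of the 4 genes against 9.65% of all probe sets. Prx37 changed by -1.05 ± 0.12 (at least 2.07-fold lower, adjusted p = 0.0051) and PRX52 by -1.35 ± 0.32 (at least 2.55-fold lower, adjusted p = 0.040). AT4G33420 was higher by 2.4 ± 0.47 (at least 5.28-fold, adjusted p = 0.023), while AT5G64120, at 1.40 ± 0.58, did not pass (adjusted p = 0.18). The median was 0.18 for the 4, which again moved in both directions, and -0.05 for all probe sets. Of the 7 markers, PYK10, a glucosidase gene of root ER bodies, was higher (0.60, adjusted p = 0.042), and its part was not tested. The Prx37 call held without each single array and was lost without both 35S:PAP1 arrays of days 2 and 7 (-1.03, adjusted p from 0.0053 to 0.089 over 14 alternatives). The PRX52 call was lost without the empty vector array of day 1 (-0.84) or day 7 (-0.93) or any array of days 2, 8 and 12 (-1.35), and the AT4G33420 call without any single array but the 35S:PAP1 one of day 7, at 1.51 to 3.01. AT5G64120 passed without the 35S:PAP1 array of day 1 (2.55), stood at 2.13 without that of day 7, and at 0.25 and 0.68 without the empty vector arrays of days 1 and 7. The adjusted p ran from 0.027 to 0.23 for PRX52, from 0.017 to 0.17 for AT4G33420 and from 0.042 to 0.78 for AT5G64120.

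Between days 2 and 7, within the warm dim regime, none of the 4 passed the threshold, beside 17 probe sets or 0.0747%. Prx37 had the only unadjusted p under 0.05 among the 4 (0.037, adjusted 0.31), at -0.30 ± 0.12, and 3284 probe sets had one. PRX52 changed by -0.25 ± 0.32, AT5G64120 by -1.05 ± 0.58 and AT4G33420 by -0.75 ± 0.47. Without the 35S:PAP1 array of day 7 these were -0.68, -0.33 and 0.14, and without the empty vector array of day 7 they were 0.18, -1.78 and -1.64. The median was -0.53 for the 4 and 0 for all probe sets. The lines' changes lay apart for AT5G64120 (-0.6 in the empty vector, -1.5 in 35S:PAP1) and AT4G33420 (0.1 and -1.6). These differences between the lines have 1 array behind each value and were not tested.

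From day 7 to day 8, from the warm dim to the cool bright regime, AT4G33420 and AT5G64120 fell and PRX52 rose. These 3 calls stand beside a background of 23.8% of all probe sets. AT4G33420 changed by -2.75 ± 0.47 (at least 6.73-fold lower, adjusted p = 0.0052), and both lines read 4 or less on day 8. AT5G64120 changed by -1.95 ± 0.58 (3.86-fold lower, adjusted p = 0.047), by -2.3 in the empty vector and -1.6 in 35S:PAP1. PRX52 rose by 1.05 ± 0.32 (at least 2.07-fold, adjusted p = 0.048), by 1.5 and 0.6 in the same order. Prx37, at 0.20 ± 0.12, did not pass (adjusted p = 0.28). The median was -0.88 for the 4, which moved in both directions, and 0.05 for all probe sets. Of the 7 markers 3 fell, LHCB4.2 (-3.00, adjusted p = 0.00023), LHCB4.1 (-1.15, adjusted p = 0.00098) and PYK10 (-0.80, adjusted p = 0.0065), and their part was not tested. The AT4G33420 call was lost without the empty vector array of day 8 (-2.58). Those of PRX52 and AT5G64120 were lost without the empty vector array of day 7 (0.63 and -1.23), either array of day 8 (0.91 and 1.19 for PRX52, -2.24 and -1.66 for AT5G64120) or any array of days 2 and 12 (1.05 and -1.95), and AT5G64120 also with each array centred on its median (-1.85). Over 14 alternatives the adjusted p ran from 0.0029 to 0.067 for AT4G33420, from 0.026 to 0.30 for PRX52 and from 0.0075 to 0.31 for AT5G64120.

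During the cool bright regime, from day 8 to day 12, Prx37 and PRX52 rose, 2 of the 4 genes against 20.2% of all probe sets. Prx37 rose by 1.70 ± 0.12 (at least 3.25-fold, adjusted p = 0.00037), by 1.7 in each line. Its small standard error reflects the parallel course of the lines and not repeats of a day. PRX52 rose by 1.30 ± 0.32 (2.46-fold, adjusted p = 0.026), by 1 in the empty vector and 1.6 in 35S:PAP1. AT5G64120, at 1.35 ± 0.58, and AT4G33420, at 0.40 ± 0.47, did not pass (adjusted p = 0.16 and 0.64). The median was 1.33 for the 4 and -0.05 for all probe sets. Of the 7 markers, LHCB4.2 rose (2.45, adjusted p = 0.00059), LHCB4.1 rose (1.05, adjusted p = 0.0017) and the guard cell gene FMA fell (-0.75, adjusted p = 0.0091), and their part was not tested. The Prx37 call held in all 14 alternatives, with adjusted p from 0.00034 to 0.024. The PRX52 call was lost without any 1 array of days 8 and 12 (1.06 to 1.54) or of day 2 (1.30), with adjusted p from 0.016 to 0.21, and AT5G64120 passed without either array of day 1 (1.35, adjusted p from 0.025 to 0.50 over the alternatives).

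Set against day 1, day 12 had a higher level of Prx37 alone among the 4, where 2.8% of all probe sets were called. Prx37 was higher by 0.85 ± 0.12 (1.80-fold, adjusted p = 0.018), by 0.9 in the empty vector and 0.8 in 35S:PAP1. PRX52 was at 1.00 ± 0.32 (adjusted p = 0.14), AT5G64120 at 0.80 ± 0.58 (adjusted p = 0.53) and AT4G33420 at 0.05 ± 0.47 (95% interval -1.04 to 1.14, adjusted p near 1). The median was 0.83 for the 4 and -0.05 for all probe sets, and 0 of the 7 markers passed. The Prx37 call was lost without any 1 array of days 1 and 12 (0.80 to 0.90) or of day 2 (0.85), with adjusted p from 0.021 to 0.19 over 14 alternatives. The day comparisons share arrays, so their values are given side by side and no overlap between them is read.

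**Figure D2:**
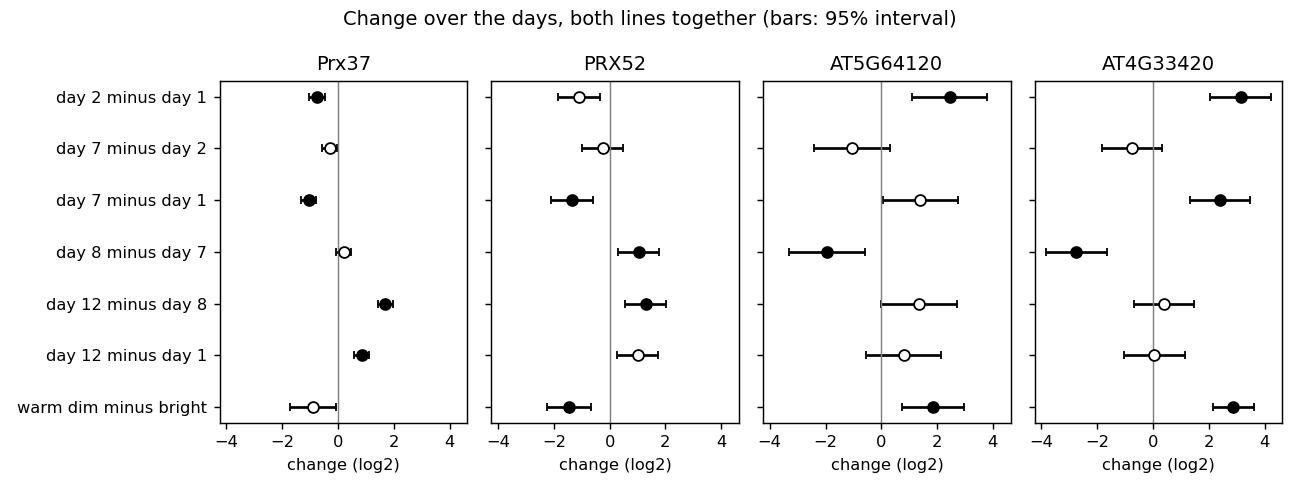
Change in log2 expression (x axis) of each peroxidase in the 6 comparisons between days and in warm dim minus bright, both lines together, with 95% intervals. Filled dots passed an adjusted p of 0.05 (limma). The warm dim minus bright row counts the 2 arrays of a day as independent, and its calls do not hold on day means. AT4G33420 lies at 3.15 from day 1 to day 2 and at -2.75 from day 7 to day 8, and Prx37 at 1.70 from day 8 to day 12.

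The regime comparison set the warm dim days 2 and 7 against the bright days 1, 8 and 12 in both lines. It counts the 2 arrays of a day as independent, although they deviated together (correlations of 0.49 to 0.84). With the mean of each day as 1 value, an alternative added after seeing the data that sets 2 days against 3, 0 of the 4 and 0 of 22746 probe sets passed (limma), while 3788 had an unadjusted p under 0.05. The calls that follow hold only under the first reading. AT4G33420 and AT5G64120 were higher and PRX52 lower in the warm dim days, 3 of the 4 genes against 11.9% of all probe sets. AT4G33420 was higher by 2.88 ± 0.33 (at least 7.34-fold, adjusted p = 0.0021), and its 4 warm dim values (5.6 to 7.6) lay above all 6 bright values (3.7 to 4.6). AT5G64120 was higher by 1.84 ± 0.50 (3.58-fold, adjusted p = 0.042), with 7.1 to 9.8 on the warm dim days overlapping 5.5 to 8 on the bright ones. PRX52 was lower by 1.46 ± 0.34 (value -1.46, at least 2.75-fold lower, adjusted p = 0.027), and Prx37, at -0.90 ± 0.37, did not pass (adjusted p = 0.15). The median was 0.47 for the 4, which differed in both directions, and -0.03 for all probe sets. PYK10 was the 1 of 7 markers that passed (0.49, adjusted p = 0.044), and its part was not tested.

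On day means the adjusted p was 0.11 for AT4G33420, 0.20 for AT5G64120 and 0.21 for PRX52, with the same sizes of change. The AT4G33420 call held in the other 15 alternatives, with adjusted p from 0.00056 to 0.11 over all 16, and stood at 3.25 without both arrays of day 7. The PRX52 call was also lost without both arrays of day 7 (-1.33) or both 35S:PAP1 arrays of days 2 and 7 (-1.73), without either array of day 2 (-1.51 and -1.50) or the empty vector array of day 7 (-1.28), with adjusted p from 0.020 to 0.21. The AT5G64120 call was also lost without both arrays of day 7 (2.37) or both 35S:PAP1 arrays of days 2 and 7 (2.43), without the empty vector array of day 1 (1.61), day 2 (1.59), day 7 (1.82) or day 8 (1.75), or the 35S:PAP1 array of day 2 (1.69) or day 8 (1.65), with adjusted p from 0.022 to 0.20.

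Whether the difference between the lines itself changed with the regime was tested on the 5 daily differences. It passed for 0 of the 4 and for 0 of 22746 probe sets, or 0%, with limma, while 2052 probe sets but none of the 4 had an unadjusted p under 0.05. AT5G64120 had a change in the difference of -1.18 ± 0.68 (95% interval -2.84 to 0.47) and AT4G33420 of -0.95 ± 0.55 (-2.27 to 0.37), both with an adjusted p of 0.64. PRX52 had 0.55 ± 0.39 (-0.39 to 1.49). Prx37, with the narrowest interval, had -0.03 ± 0.15 (-0.39 to 0.33). These values moved with single days. AT5G64120 ran from -1.65 without day 8 to -0.50 without day 1 and was -0.73 without day 7, AT4G33420 ran from -1.80 without day 2 to -0.10 without day 7, and PRX52 from 0.20 without day 7 to 0.90 without day 2, with 0.25 without day 1 and 0.85 without day 12. The median was -0.49 for the 4 and -0.02 for all probe sets.

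The courses of the genes over the 5 days were set against each other within each line, as a description over 5 arrays of the same days. Prx37 and PRX52 correlated at 0.86 in the empty vector and 0.90 in 35S:PAP1. AT5G64120 and AT4G33420 correlated at 0.94 and 0.83. PRX52 and AT4G33420 ran opposite in both lines (-0.88 and -0.68), and Prx37 and AT5G64120 stood at -0.33 and 0.07. PRX52 and AT5G64120 stood at -0.72 and -0.26, and Prx37 and AT4G33420 at -0.53 and -0.48.

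Among 5283 probe sets naming 1 gene with a range of at least 1 log2 unit, the 3 most like each peroxidase were taken by Pearson correlation over the 10 arrays, with no test. For Prx37 they were AT4G18250 (0.973), AT2G21520 (0.966) and AT5G38900 (0.964). For PRX52 they were AT2G44525 (0.923), AT5G47130 (0.919) and AT2G21520 (0.919). For AT5G64120 they were AT4G20000 (0.968), AT3G44630 (0.966) and ATN1 (0.965). For AT4G33420 they were AT3G44610 (0.993), PTI1-4 (0.987) and AT3G10770 (0.981). AT2G21520 came up for both Prx37 and PRX52.

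Of the family list of 73 loci, 55 had a probe set naming 1 gene, these 4 and 51 others, and 7 more loci stood in 4 probe sets naming several genes. Of the 51 others, 29 were at or below the limit on all 10 arrays and 22 rose above it on at least 1. The direct neighbours of 2 members in the gene order read near the limit. AT4G08780, beside Prx37, read 3.3 to 4.5, and AT5G64110, beside AT5G64120, read 3.7 to 4.4. AT5G64100, with 1 gene between it and AT5G64120, read 3.8 to 4.1. Probe sets of such close relatives can share signal, and this was not tested.

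**Figure D3:**
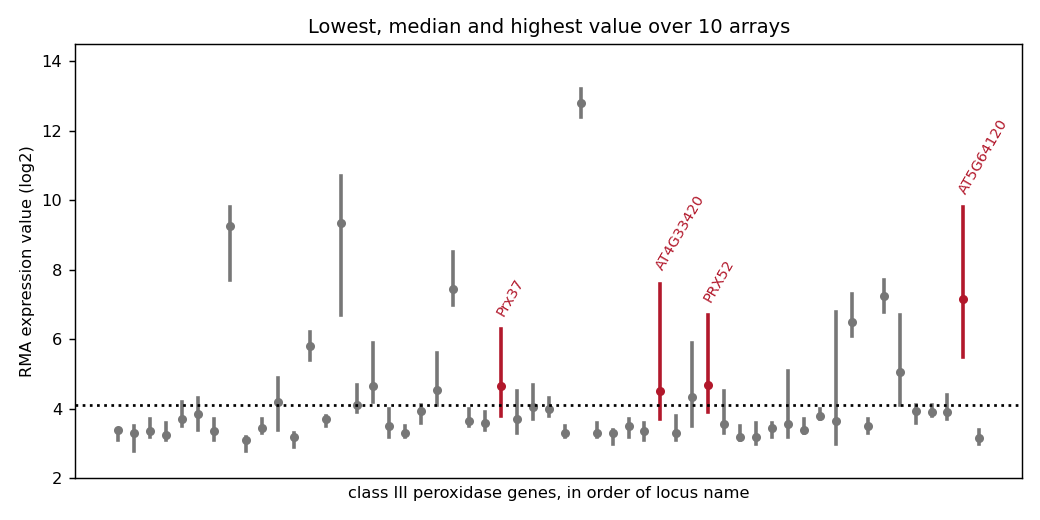
Log2 expression of the class III peroxidases with a probe set naming 1 gene, ordered by locus name. Lines run from the lowest to the highest of the 10 arrays, dots are medians, the 4 members are red and the dotted line is the limit of 4.1. Of the 51 genes beside the 4 members, 29 have all values at or below the limit.

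Of the 51 others, 12 (23.5%) passed the threshold in at least 1 comparison, against 37.9% of all probe sets. Between the lines 0 passed, with 3 at an unadjusted p under 0.05, beside 1587 of all 22746 probe sets. Of all 22746 probe sets, 345 (1.52%) were lower and 550 higher in 35S:PAP1 on all 5 days. Of the 51, AT5G58390 was the only one lower on all 5 (-0.4, -1.7, -0.8, -0.1 and -1). AT5G40150 was the only one higher on all 5 (0.6, 0.4, 1.2, 0.4 and 0.4). From day 1 to day 2, 3 rose and 0 fell, 5.88% against 9.94% of all probe sets: AT5G39580 by at least 3.30 ± 0.64 (adjusted p = 0.023), AT2G37130 by 1.80 ± 0.42 (adjusted p = 0.038) and AT3G28200 by 1.40 ± 0.14 (adjusted p = 0.0053). AT5G39580 read 3, 6.8, 5.8, 3.4 and 4 in the empty vector and 3.8, 6.6, 3.3, 3.5 and 3.5 in 35S:PAP1. Its day 7 values lay apart in the lines, as those of AT4G33420 did. By day 7 against day 1, 3 were higher (AT2G37130, PRX25 and AT3G28200) and 2 lower (AT4G36430 and AT2G34060), 9.8% against 9.65%. From day 2 to day 7, 0 passed, with 7 at an unadjusted p under 0.05, beside 3284 of all 22746 probe sets.

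From day 7 to day 8, 6 of the 51 fell and 1 rose, 13.7% against a higher 23.8% of all probe sets. AT2G37130 changed by -2.90 (adjusted p = 0.0027), AT5G58390 by -1.55, PRX25 by -1.20, AT1G71695 by -1.10, PRXR1 by -0.80 and AT3G28200 by -0.55. AT4G36430 rose by at least 0.75 (adjusted p = 0.013). PRXR1 lay between 12.4 and 13.2 on all arrays. From day 8 to day 12, 4 rose and 0 fell, 7.84% against 20.2%: AT2G37130 by 2.15, AT4G36430 by 1.40, AT5G19880 by at least 1.05 and AT5G06730 by at least 1.00. Against day 1, day 12 had 3 higher (AT4G36430, AT5G19880 and AT5G06730) and 2 lower (AT1G71695 at -1.60 and AT2G22420 at -1.15 or lower), 9.8% against 2.8%. In the warm dim days 4 were higher and 0 lower, 7.84% against 11.9%, namely AT2G37130 (1.83 ± 0.52), AT5G58390 (at least 1.14 ± 0.28), PRX25 (0.98 ± 0.15) and AT3G28200 (0.86), with adjusted p from 0.0062 to 0.049 and none passing on day means. The interaction passed for 0, with 2 at an unadjusted p under 0.05, beside 2052 of all 22746 probe sets. The median change of the 51 lay between -0.1 and 0.1 in all 9 comparisons.

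The probe set naming both AT4G37530 and AT4G37520 read 6.4, 8.8, 7.8, 4.2 and 7.9 in the empty vector and 6.3, 7.6, 6.7, 3.8 and 7.4 in 35S:PAP1. It was lower in 35S:PAP1 on all 5 days (-0.1, -1.2, -1.1, -0.4 and -0.5), with a mean difference of -0.66 ± 0.17 or lower (limma, adjusted p = 0.49). It rose by 1.85 ± 0.27 from day 1 to day 2 (adjusted p = 0.010), changed by -3.25 or lower from day 7 to day 8 and rose by at least 3.65 from day 8 to day 12 (adjusted p = 0.00044 and 0.00046). From day 8 to day 12 the probe set naming AT3G42570 and AT3G17070 changed by -0.85 ± 0.21 (limma, adjusted p = 0.029). That naming AT2G38390 and AT2G38380 rose by at least 1.10 ± 0.20 (limma, adjusted p = 0.0089). The probe set naming AT2G18150 and AT2G18140 did not pass in any comparison. Which gene of a shared probe set gave the signal cannot be told apart.

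**Figure D4:**
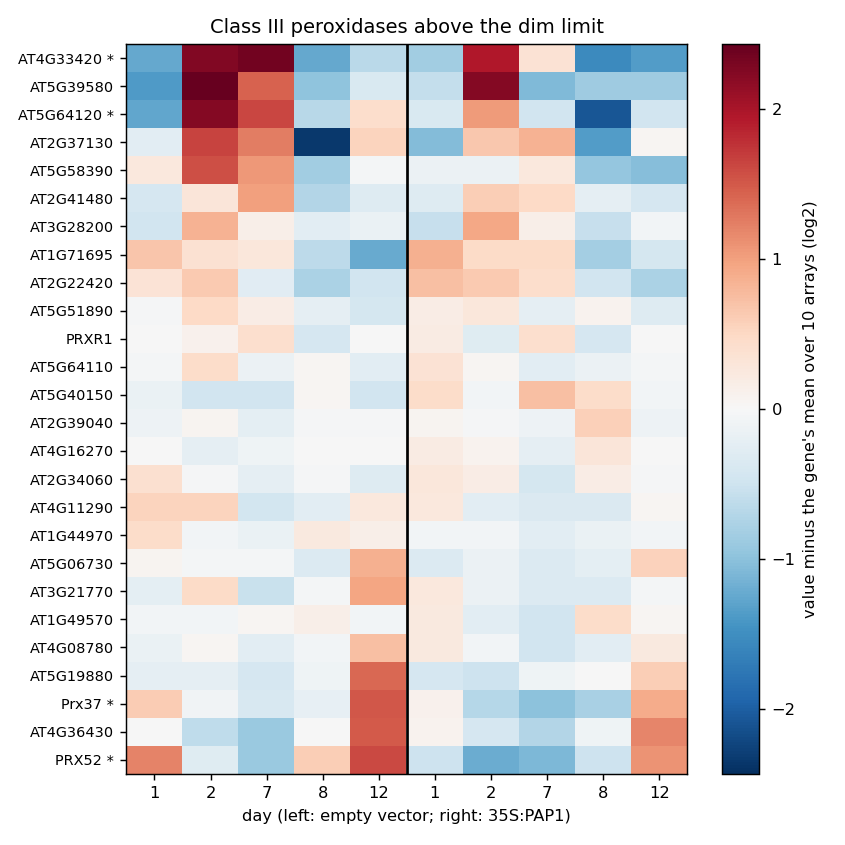
Log2 expression relative to each gene's mean over the 10 arrays (colour) for the 26 class III peroxidases above the limit of 4.1 on at least 1 array, by line and day, with rows ordered by the warm dim minus bright difference; an asterisk marks Prx37, PRX52, AT5G64120 and AT4G33420. AT4G33420, AT5G39580 and AT2G37130 are high on day 2, while Prx37, PRX52 and AT4G36430 are high on day 12.

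Few genes of the surrounding pathways had a probe set naming 1 gene. In the monolignol and lignin list this was 3 of 19. CCOAMT, an O-methyltransferase gene, differed by -0.84 ± 0.10 or lower in 35S:PAP1 (adjusted p = 0.049). This call was lost in 13 of 15 alternatives, without any 1 array among them (-0.90 to -0.78), and the adjusted p ran from 0.041 to 1. Leaving out either array of a day gives the same fit here, since its partner drops out too. CCOAMT changed by -1.90 or lower from day 7 to day 8 and rose by at least 3.70 to day 12. It was higher by 1.45 on day 12 than on day 1. HCT, which makes the shikimate esters of the monolignol pathway, changed by -0.55 from day 7 to day 8 (adjusted p = 0.034). CCR2, a cinnamoyl-CoA reductase gene, passed in 0 of the 9 comparisons. Between the lines it differed by -1.08 ± 0.27 or lower in 35S:PAP1 (limma, adjusted p = 0.48). It read 3.5, 5.6, 6, 4.5 and 4.9 in the empty vector. In 35S:PAP1 it read 3.5, 4, 3.9, 3.8 and 3.9, below the limit on each day. Of 17 laccases, which also oxidise monolignols, 1 had such a probe set, LAC16 (3.1 to 3.6), and it passed in 0. Of 20 superoxide and hydrogen peroxide enzymes 3 had one and 0 passed. These were AT1G19230 (3.1 to 3.5), AT4G25090 (3.2 to 3.6) and AT4G11230 (3 to 3.2). Like LAC16 they lay below the limit on every array, so a change in them could not be read. Of 15 ascorbate and glutathione peroxidases, which remove hydrogen peroxide within cells, 2 had such a probe set. SAPX, a chloroplast ascorbate peroxidase, was lower in the warm dim days (-1.75 ± 0.38, adjusted p = 0.020, not passing on day means) and rose by 2.60 from day 7 to day 8 (adjusted p = 0.00025). Its values were 8.8, 7.4, 7.6, 10.3 and 9.3 in the empty vector and 8.6, 7.7, 7.9, 10.4 and 9 in 35S:PAP1. TAPX, of the thylakoid, passed in 0.

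Of the cell type markers, the guard cell gene FMA read 5.5 to 6.6, the root genes EXPA7 and EXPA18 3.5 to 3.9 and 3.7 to 4.1, and BAN, of the seed coat, 3.3 to 3.7. The xylem and trichome markers had 0 probe sets naming 1 gene, so a shift in the share of lignifying cells was not measured.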

How the data were processed

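Per the labels' protocols, biotin-labelled total RNA of pooled frozen leaves was put on Affymetrix arrays. The authors deposited log2 values per probe set, which the submitters' processing notes credit to RMA. This method removes background, gives all arrays the same distribution and reduces each probe set to 1 value. Its version is not given in the sources used here. Values ran from 2.4 to 14.2 and array medians from 5.5 to 5.7. Arrays have no read depth, and their number limits the precision.

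The 22810 deposited probe sets hold 64 array controls, and the other 22746 entered every test. A gene is named alone for 13513 (13436 matched the reference gene table, TAIR10.1, by Entrez identifier) and 503 name several, while 8730 stand without a name here. All array columns were used.

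The tests are those of limma 3.58.1 (lmFit, eBayes; R 4.3.3), with Benjamini-Hochberg adjustment over all probe sets and a threshold of 0.05. The difference between lines had day as a block, and the day comparisons came from the same fit (4 residual degrees of freedom). The regime comparison had line as a covariate (7) and the interaction used the 5 daily differences (3). Arrays are paired by the labelled day, and once each line's mean was taken off, the arrays of a day correlated at 0.53, 0.77, 0.49, 0.84 and 0.75 in day order. The alternatives were no block, median centring, a filter on dim probe sets, eBayes with trend, each array left out in turn, and both 35S:PAP1 arrays of days 2 and 7 left out. For the difference between lines and the interaction, the same-day partner of a left-out array drops out too. Either array of a day then gives the same fit. Day means and leaving out day 7, for the regime, were added after seeing the data. The model was tested on simulated data with planted changes larger than any mean change of the peroxidases. Each simulated array was drawn independently, so the shared deviation of the arrays of a day was not tested.

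The named genes are the 4 peroxidases, the other peroxidases of the family list, members of the other lists that passed a test, and the 3 genes most like each peroxidase over the arrays. The members and lists were chosen with earlier results of these data known, so their counts are descriptions.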

Additional observations from a re-analysis of the deposited data

Results flagged for a closer look

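In 12 sets of 5 values (the values of each line and the daily differences, for the 4 peroxidases), the gap between the highest or lowest value and its nearest neighbour was set against the range. The Prx37 difference between 35S:PAP1 and the empty vector on day 1, -0.5, stood apart from the other 4, which were each -0.6. The gap is 1 step of the rounding of the deposited values. Chance flags about 1 in 20 groups of unrounded values. That rate does not hold here, since with the other 4 values tied any gap is the whole range.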

How the results depend on the processing

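Leaving out 1 array at a time, the number of peroxidases called ran from 0 to 3 for day 2 against day 1, 1 to 3 for day 7 against day 1, 0 to 3 for day 8 against day 7, 1 to 3 for day 12 against day 8, 0 to 1 for day 12 against day 1 and 1 to 3 for warm dim against bright days, and was 0 throughout for day 7 against day 2, the difference between lines and the interaction. In the same order the called probe sets ran from 0 to 2749 (main 2260), 137 to 1567 (2196), 2191 to 4970 (5423), 1429 to 4723 (4586), 4 to 383 (637) and 878 to 2661 (2705), and they ran from 0 to 138 for day 7 against day 2 (17), 0 to 13 between lines (18) and 0 to 0 for the interaction. Without both 35S:PAP1 arrays of days 2 and 7, 0 probe sets were called between lines and for days 2 against 1, 7 against 2, 7 against 1 and 12 against 1, with 3453 for day 8 against 7 and 288 for the regime. The called peroxidases were then 0 for days 2, 7 and 12 against day 1, and 1 each for day 8 against 7, day 12 against 8 and the regime. The interaction could not be fitted there. For the regime, on the mean of the 2 arrays of each day, 0 probe sets and 0 peroxidases were called, and without both arrays of day 7 it was 845 and 1; both were added after seeing the data. Between lines, 8 probe sets were called with no replicate block for the day, and all 4 peroxidases then had an adjusted p of 1. There were 31 with dim probe sets left out and 34 with a trended prior. Values that changed sign were all uncalled. For day 7 against day 2, PRX52 ran from -0.68 to 0.18 over the single arrays left out, above 0 without the empty vector array of day 7, and AT4G33420 from -1.64 to 0.14, above 0 without the 35S:PAP1 array of day 7, and it was at 0.1 without both 35S:PAP1 arrays of the warm dim days. For day 12 against day 1, AT5G64120 ran from -0.35 to 1.95 and AT4G33420 from -0.56 to 0.66, both lowest without the empty vector array of day 1, and AT4G33420 was at -0.03 without that of day 12. Why these changed was not tested. Fewer arrays also leave fewer residual degrees of freedom, which bears on the p-values and not on the sign. Over all alternatives the single peroxidase values kept direction and call status in 418 fits, lost the call in 85, gained one in 3 and turned in 6. Many of the 418 belong to values not called in the main fit, which had no call to lose. The 418 is therefore not a count of calls that held. Median centring moved the median of all probe sets by up to 0.1, from 0.05 to 0.15 for day 8 against day 7. A comparison left with 1 array on a day takes its spread from the other arrays. Dim values, without detection calls, limit the falls of Prx37, PRX52 and AT4G33420.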
